A study of Mus musculus with 12 samples.

Results

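Fxyd4, Krt18, Gata3 and Npnt were taken as genes of the principal cells of the collecting duct, the last segment of the kidney tubule. Every clone annotated with one of these symbols alone was taken, which gave 6 of the 15600 cDNA clones on the array. Krt18 had 3 clones, and Fxyd4, Gata3 and Npnt had 1 each. The series addressed the response of the renal medulla, the urine-concentrating inner kidney, of mice to water restriction. Amplified RNA of 3 restricted mice (WR1, WR2 and WR3) and 3 controls (C1, C2 and C3) was compared on 12 arrays of 2 colours, covering all 9 pairs. The pairs WR1 with C3, WR2 with C1 and WR3 with C2 were hybridised in both dye orientations. The labels name no strain, sex, age or length of restriction.

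Principal cells reabsorb water through vasopressin-regulated channels and sodium through an apical channel and the basolateral sodium pump. Their identity in development depends on transcription factors such as Gata3, and they keep an epithelial keratin network and a laminin-rich basement membrane. In bulk tissue, a change in the number of principal cells and a change in RNA of these genes per cell cannot be told apart. The arrays give ratios between mice, not levels over background, so neither the presence of the marker genes nor the order of their abundance could be examined.

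Each orientation has 6 arrays, called 546 arrays where the restricted mouse carried Alexa Fluor 546 and 647 arrays where it carried Alexa Fluor 647. Which dye is the numerator of the deposited ratio is not known, so signs were reversed on the 647 arrays and the result is called the turned ratio. Below 0 it stands for less RNA under restriction if 546 is the numerator, and for more RNA if 647 is. The direction is therefore not settled, but the 4 genes share 1 sign convention. The array WR2 against C2 stood apart, with an SD over spots of 1.21 against 0.515 to 0.764 on the other 11. Both adjacent spots of each clone were averaged, and the correlation of such spots over the array was 0.362 to 0.684.

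Between restricted and control mice, Fxyd4, Krt18 and Gata3 lay on the negative side. The log2 differences were -1.10 for Fxyd4, -0.95, -0.88 and -0.78 for the 3 Krt18 clones, and -0.59 for Gata3 (n = 3 mice per group), over both dye orientations. On 647 arrays alone the order was another, with -1.19 for Fxyd4 and -1.53, -1.24 and -1.47 for the same Krt18 clones. Krt18 was smaller in size on 546 arrays alone, where Fxyd4 had -1.06 (SE 0.27). There the same Krt18 clones had -0.45 (SE 0.31), -0.60 (SE 0.32) and -0.09 (SE 0.28), the last within its SE. Over both orientations Npnt had -0.26, close to its SE of 0.22. No clone of the 15600 passed limma with Benjamini-Hochberg adjustment at 0.05 (0% called), although 584 had an unadjusted p under 0.05. Under a fit with random mouse effects, 219 clones passed (1.40%), and these included Fxyd4, Gata3 and all 3 Krt18 clones but not Npnt. That fit takes its residual error from the 12 arrays, which share 6 mice, and sets the variance between mice at 0.1 of that between arrays for every clone. With both variances set equal, an alternative chosen after seeing the data, no clone passed (331 had an unadjusted limma p under 0.05), and the adjusted p of these 5 clones was 0.261 or more.

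The sequences just before the starts of Fxyd4, Krt18 and Gata3, whose clones passed under random mouse effects, are shown. They are 250 bases each, from RefSeq on GRCm38.p6, read 5′ to 3′ along the gene, and capitals mark the GC box GGGCGG or its complement. The windows are chr6:117937336-117937585 on the minus strand for Fxyd4, chr15:102027966-102028215 on the plus strand for Krt18, and chr2:9878601-9878850 on the minus strand for Gata3.
Fxyd4: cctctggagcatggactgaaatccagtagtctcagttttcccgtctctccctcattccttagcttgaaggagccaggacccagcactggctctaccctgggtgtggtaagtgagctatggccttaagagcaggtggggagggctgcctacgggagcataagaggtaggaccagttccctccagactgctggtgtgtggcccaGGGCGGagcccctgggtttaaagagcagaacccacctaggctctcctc
Krt18: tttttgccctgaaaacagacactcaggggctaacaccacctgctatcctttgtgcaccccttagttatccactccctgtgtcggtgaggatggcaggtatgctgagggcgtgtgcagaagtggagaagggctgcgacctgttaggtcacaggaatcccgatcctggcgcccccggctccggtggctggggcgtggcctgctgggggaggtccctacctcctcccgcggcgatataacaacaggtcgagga
Gata3: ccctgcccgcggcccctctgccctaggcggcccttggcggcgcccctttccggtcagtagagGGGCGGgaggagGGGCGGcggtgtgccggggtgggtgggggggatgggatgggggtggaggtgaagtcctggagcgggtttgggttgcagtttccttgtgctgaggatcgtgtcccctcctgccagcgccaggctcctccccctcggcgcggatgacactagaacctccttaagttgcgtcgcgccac
The Fxyd4 window held 1 GC box and the Gata3 window 2, which overlap no other motif searched, and the Krt18 window held none. On either strand, 32.7% of 32851 promoter windows of this length hold a GC box. The GATA words AGATAA and AGATAG, as well as TGATAA and TGATAG, were in none of the 3 windows, against 26.5% of all windows. TGACG, the core of the cyclic AMP response element (17.8% of all windows), the TATA word TATAAA (12.4%) and the tonicity-responsive element (4.31%) were likewise in none of the 3. Of the windows of Npnt, which are not shown, 1 held TGACG and another held 3 GC boxes. GC content was 58.0% for Fxyd4, 60.4% for Krt18 and 70.0% for Gata3, against a median of 52.4%.

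Fxyd4 encodes a small membrane protein that modulates the sodium pump and is also called CHIF, the channel-inducing factor of the collecting duct. Its turned log2 ratio ran from -1.78 to -0.48 over the 12 arrays, with a median of -1.09. All 12 values were negative, as in 0.487% of clones. The 2 arrays of a swapped pair gave -1.78 and -1.68 for WR3 with C2, -0.54 and -0.64 for WR2 with C1, and -1.03 and -1.55 for WR1 with C3. Mean ratios were -1.06 ± 0.41 (SD, n = 6 arrays) on 546 arrays and -1.19 ± 0.51 (SD, n = 6) on 647 arrays. The orientations thus lay closer together than arrays of 1 orientation did, and the dye term of 0.06 (SE 0.09) did not pass limma (adjusted p = 0.696).

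The fitted Fxyd4 levels of single mice, on a log2 scale on which both group means centre on 0, were -0.66, -0.43 and -0.56 in WR1, WR2 and WR3. In C1, C2 and C3 they were 0.08, 0.88 and 0.69. The groups did not overlap, as in 3.58% of clones on the negative side, and the nearest mice lay 0.51 apart. C1 lay closest to the restricted mice, and the SD was 0.12 in restricted and 0.41 in control mice. For mice of the same group the limma F-test gave an unadjusted p of 0.0187 and an adjusted p of 0.211 (0.436% of clones called). The difference between groups was -1.10 (SE 0.23), the 10th most negative of 15600 clones. Its unadjusted p was 0.00115 by limma (1.38% of clones had one under 0.05 on this side) and the adjusted p 0.586. With random mouse effects it was -1.13 (SE 0.15, limma adjusted p = 0.00156), a call made for 0.436% of clones on the negative side. With equal variance between mice and between arrays the SE was 0.25 and the adjusted limma p 0.261.

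**Figure D1:**
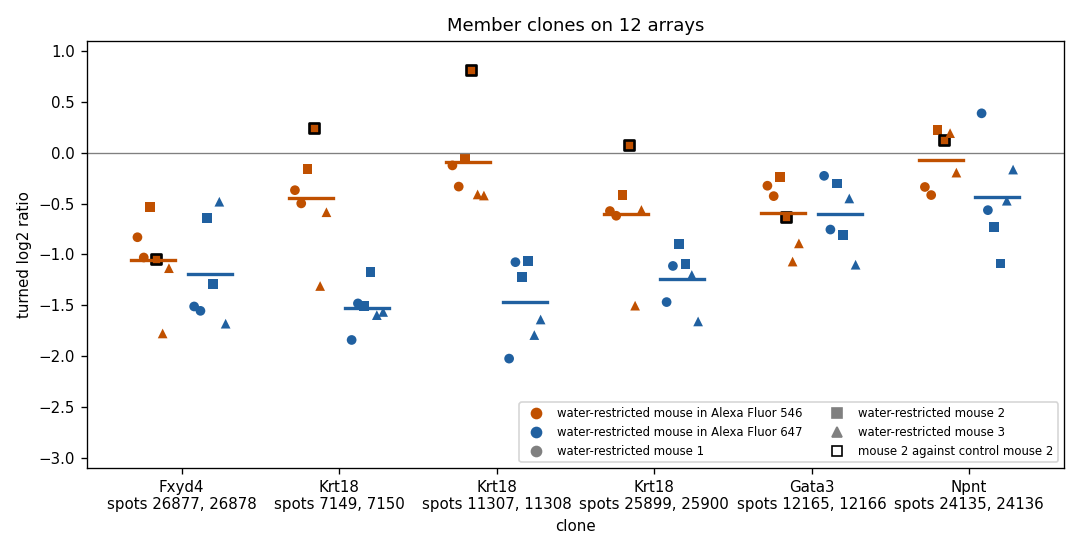
Turned log2 ratio of each member clone (x axis) on the 12 arrays (y axis), 546 arrays in orange and 647 arrays in blue; lines are means of 6 arrays and black outlines mark WR2 against C2. Fxyd4 and Gata3 are below 0 on all 12 arrays, as are 0.487% of clones. The 3 Krt18 clones have a lower mean in blue than in orange and are above 0 on the outlined array, and Npnt lies on both sides of 0.

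Krt18 encodes keratin 18, a type I keratin that pairs with keratin 8 in the filaments of simple epithelia. Its clones were at spots 7149 and 7150, 11307 and 11308, and 25899 and 25900. The first ran from -1.84 to 0.24 over the 12 arrays (median -1.24), the second from -2.02 to 0.81 (median -0.74), and the third from -1.66 to 0.07 (median -0.997). Each was negative on 11 of 12 arrays, as 1.94% of clones were on 11 or 12, and each was positive on the array WR2 against C2. There the 3 clones gave 0.24, 0.81 and 0.07. On the other 11 arrays all 3 were negative, as were 1.11% of all clones.

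Krt18 read differently by dye orientation. On 647 arrays the 3 clones averaged -1.53 ± 0.22, -1.47 ± 0.41 and -1.24 ± 0.28 (SD, n = 6 arrays). On 546 arrays they averaged -0.45 ± 0.52, -0.09 ± 0.47 and -0.60 ± 0.51. By the dye term, fitted together with the mouse levels on weighted arrays, the orientations differed by 1.15, 1.49 and 0.73. The dye term passed limma for the first clone (adjusted p = 0.0162) and the second (0.0132) but not the third (0.0578), and 6.76% of clones passed in all. Without the array WR2 against C2 the adjusted p was 0.0202, 0.0161 and 0.0938. The means of both orientations were below 0 for each clone, but that of the second clone on 546 arrays was within its SE of 0.28.

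Fitted levels of the first Krt18 clone were -0.59, -0.11 and -0.73 in WR1, WR2 and WR3, and 0.46, 0.54 and 0.44 in C1, C2 and C3. The second had -0.56, 0.09 and -0.69 against 0.47, 0.36 and 0.34, and the third -0.53, -0.12 and -0.67 against 0.37, 0.55 and 0.40. Groups did not overlap in any of the 3, as in 3.58% of clones on the negative side. The control mice lay close together (SD 0.05, 0.07 and 0.10), while WR2 lay nearest to them. Without the array of WR2 against C2 its levels were -0.37, -0.19 and -0.44, and those of C2 were 0.80, 0.64 and 0.87.

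The difference between groups was -0.95 (SE 0.20) for the first Krt18 clone, -0.78 (SE 0.22) for the second and -0.88 (SE 0.19) for the third. Without the array WR2 against C2 these were -1.06, -0.89 and -1.01. On all arrays, unadjusted limma p-values were 0.00115, 0.00808 and 0.00152, and adjusted ones 0.586, 0.999 and 0.586. These clones were the 25th, 64th and 37th most negative of 15600. Under random mouse effects all 3 passed (limma adjusted p = 0.00233, 0.0196 and 0.00475), and with equal variances none did (0.676, 1 and 0.745). The clones carry the same gene and are no independent evidence of each other. They differed among themselves by 0.09 to 1.09 on single arrays, with a median of 0.43, and correlated over the 12 arrays, which share 6 mice, at 0.83 to 0.93.

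**Figure D2:**
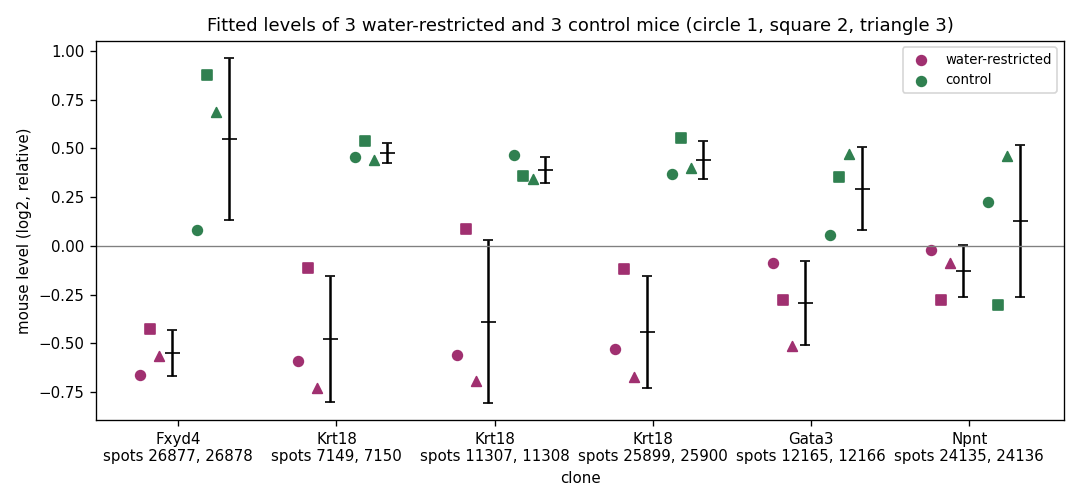
Fitted log2 level (y axis, relative to the mean of both groups) of each mouse for each member clone (x axis), with the mean and SD of 3 mice in black; marker shapes give the mouse number. The 5 clones of Fxyd4, Krt18 and Gata3 show no overlap between groups, as in 3.58% of all clones on the negative side. WR2 is nearest to the controls for Krt18, C1 is nearest to the restricted mice for Fxyd4, and the groups overlap for Npnt.

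Gata3 encodes a zinc-finger transcription factor needed for the ureteric bud, from which the collecting duct grows. Its turned ratios ran from -1.10 to -0.23 over the arrays, with a median of -0.54. All 12 were negative, as in 0.487% of clones. Means were -0.60 ± 0.33 (SD, n = 6) on 546 arrays and -0.61 ± 0.34 (SD, n = 6) on 647 arrays. The dye term was -0.02 (SE 0.08, limma adjusted p = 0.918), the closest to 0 among the 6 clones.

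Levels of Gata3 were -0.09, -0.28 and -0.52 in WR1, WR2 and WR3, and 0.06, 0.35 and 0.47 in C1, C2 and C3. The groups did not overlap, as in 3.58% of clones on the negative side. The gap between WR1 and C1 was 0.14, narrower than the SD of 0.21 in each group. The difference of -0.59 (SE 0.19) had an unadjusted limma p of 0.0142 and an adjusted p of 0.999. It was the 233rd most negative clone. Under random mouse effects it was -0.60 (SE 0.13, limma adjusted p = 0.0273), and with equal variances the adjusted p was 1.

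Npnt encodes nephronectin, a matrix protein that binds integrin α8β1 and takes part in kidney development. Its turned ratios ran from -1.09 to 0.39, with a median of -0.27, and 8 of 12 were negative. Levels were -0.02, -0.28 and -0.09 in WR1, WR2 and WR3, and 0.23, -0.30 and 0.46 in C1, C2 and C3. C2 lay below all 3 restricted mice, so the groups overlapped. The difference of -0.26 (SE 0.22) had an unadjusted limma p of 0.276 and an adjusted p of 0.999, and under random mouse effects the adjusted p was 0.679. The value was -0.09 without C3 and -0.47 without C2. It was -0.07 on 546 arrays alone and -0.44 on 647 arrays alone.

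The 2 spots of the Npnt clone differed by a median of 0.37 (absolute, log2) over the arrays, against 0.31 over all clones. A larger median was found for 37.1% of clones. The largest difference for Npnt was 2.72, on the array C1 against WR3. There the first spot gave 0.89 and the second -1.83. Taken alone, the first spot gave a group difference of -0.08 and the second -0.44. The median spot difference was 0.06 for Fxyd4 and 0.07 for Gata3, and 92.2% and 89.9% of clones had a larger one. For the Krt18 clones it was 0.16, 0.15 and 0.10. The Npnt spots were thus the least alike of the 6 clones.

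**Figure D3:**
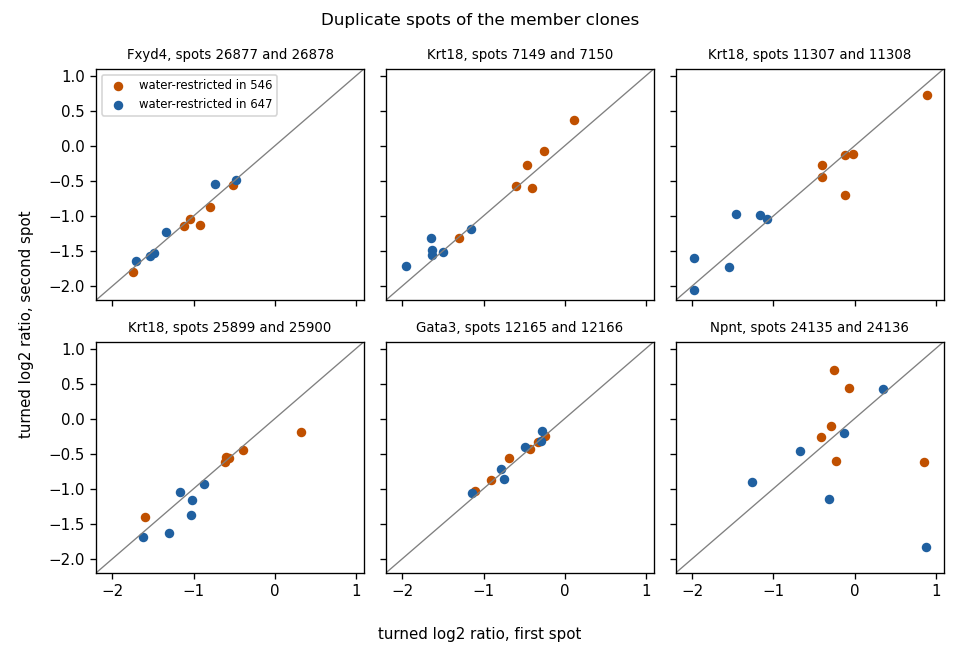
Turned log2 ratio of the second spot (y axis) against the first (x axis) of each member clone on 12 arrays, coloured by dye orientation, with the line of equality. Points of Fxyd4 and Gata3 follow the line, those of Krt18 follow it with orange above blue, and those of Npnt scatter, with 1 array at 0.89 and -1.83.

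The members did not vary together in every respect. Both arrays of all 3 swapped pairs were negative for Fxyd4, Gata3 and the 3 Krt18 clones, as for 3.58% of clones, but not for Npnt. Over the 12 arrays, which share mice and dyes, Fxyd4 correlated with Gata3 at 0.70 and with the Krt18 clones at 0.38, 0.20 and 0.57. Gata3 correlated with the Krt18 clones at 0.17, -0.01 and 0.37. Npnt correlated with Fxyd4 at -0.20, with Gata3 at 0.08 and with the Krt18 clones at 0.21, 0.22 and 0.06. With the dye term removed, its correlations with the Krt18 clones turned to -0.32, -0.37 and -0.34, while that of Fxyd4 with Gata3 was 0.71.

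Of all clones with a gene name, those with the array pattern most like Fxyd4 (Pearson correlation over 12 arrays) were clones of Rpl10 (0.91), Rbm39 (0.91) and Phip (0.90). Those most like Gata3 were Ptprz1 (0.88), Sfpq (0.86) and Col3a1 (0.84), and those most like Npnt were Grb2 (0.87), Ptms (0.82) and Trip12 (0.82). The first Krt18 clone was most like clones of Tkt (0.95), Chmp2a (0.94) and Krt18 itself (0.93, the second clone). The second was most like Prdm4 (0.95), Rpsa (0.94) and Tbcd (0.94), and the third like Clk3 (0.95), Polr1d (0.94) and Rplp1 (0.92). These Krt18 neighbours had dye terms of 0.23 to 0.78, on the same side as those of Krt18, so dye orientation moves with the likeness; its part was not tested. A correlation leaves out the mean over arrays. Among these neighbours, differences past 0.5 in size were found for the Col3a1 clone (-1.07, SE 0.26) and the second Krt18 clone.

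Most of the other principal cell genes measured had small negative values, none past the threshold. Of 26 listed genes 10 were measured as genes (mean over clones), and 9 of these were negative, against 49.3% of 6786 genes. Their median was -0.28, against 0.0034 over all genes. None passed limma over all genes (0% called), and Fxyd4, Krt18 and Gata3 had an unadjusted p under 0.05, as did 1.75% of genes on the negative side. The 4 members were chosen with such values known. Of the 6 other genes 5 were negative, with a median of -0.20 and none with an unadjusted p under 0.05. They were Tspan8, a tetraspanin, at -0.35 (SE 0.16), Krt8, the partner of keratin 18, at -0.29 (SE 0.25), Krt7 at -0.22 (SE 0.20), Krt19 at -0.18 (SE 0.20), the transcription factor Tfcp2l1 at -0.10 (SE 0.17) and the transcription factor Elf3 at 0.02 (SE 0.15). The mean level of these 6 genes was -0.13, -0.08 and -0.07 in WR1, WR2 and WR3. In C1, C2 and C3 it was 0.007, -0.04 and 0.32, so C3 lay apart from the other mice. Krt8, Krt7, Krt19, Tfcp2l1 and Elf3 overlapped between groups, while Tspan8 did not, as in 3.58% of clones on the negative side. The water channel Aqp2 and the vasopressin receptor Avpr2 were not among the measured genes.

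Of the 14 listed FXYD proteins and sodium pump subunits 5 were measured, and Fxyd4 was the one with a large negative value. Fxyd6, a regulator of the pump known from nervous tissue, had 0.45 (SE 0.18) and Fxyd3 -0.02 (SE 0.17). The pump subunit Atp1b1 had 0.33 (SE 0.14) and Atp1b3 0.04 (SE 0.15). Fxyd6 and Atp1b1 had unadjusted limma p-values of 0.0343 and 0.0432 on the positive side, as did 3.21% of genes, and adjusted ones of 0.920 and 0.961. The 3 Atp1b1 clones disagreed, at -0.25, 0.65 and 0.59. The list's median was 0.04, and 0.12 without the array WR2 against C2.

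Keratins and the junction and plakin proteins that hold them lay on the negative side in 8 of 8 measured genes of 25 listed, with a median of -0.39. Of these, Krt18, Krt8, Krt7 and Krt19 also stand in the principal cell list, so the counts of both lists are not independent. Krt18 and Ppl, the plakin periplakin, had an unadjusted p under 0.05, against 1.75% of all genes on that side and 49.3% of genes negative. Krt18 was chosen with its values known. Ppl had levels of -0.50, -0.06 and -0.59 in WR1, WR2 and WR3 and of 0.54, 0.26 and 0.36 in C1, C2 and C3. It was negative on 12 of 12 arrays, as in 0.487% of clones. Its difference was -0.77 (SE 0.19, limma adjusted p = 0.672). Under random mouse effects Ppl passed (limma adjusted p = 0.00731), as did 1.46% of genes. As with Krt18, WR2 lay nearest to the controls. The plakin Evpl had -0.58 (SE 0.37) and the junction protein Jup -0.48 (SE 0.33). Of the 2 Krt8 clones 1 gave -0.0035 and the other -0.58.

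Of 25 listed GATA factors, cofactors and ureteric bud genes 9 were measured, 7 of them negative (49.3% of all genes), with a median of -0.18. Without the array WR2 against C2, 6 were negative. Gata4, named for this after its values were seen, went from -0.67 (SE 0.69) to 0.08. Besides Gata3, the LIM-domain binding protein Ldb1, a partner of GATA complexes, had -0.45 (SE 0.15). Its unadjusted limma p was 0.0166 and the adjusted p 0.771. Its levels did not overlap between groups, as in 3.58% of clones on the negative side. They were -0.34, -0.21 and -0.13 against 0.07, 0.29 and 0.32. Gata2, a relative of Gata3 with 3 clones, had -0.23 (SE 0.19), and Gfra1, the co-receptor of the bud's growth factor receptor Ret, had -0.18 (SE 0.19).

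Nephronectin partners and basement membrane genes were negative in 11 of 15 measured of 27 listed, with a median of -0.24. Those with an unadjusted limma p under 0.05 were the heparan sulfate proteoglycan Agrn at -0.54 (SE 0.18), the linker Nid2 at -0.52 (SE 0.19), Fras1, a matrix protein that holds nephronectin in place, at -0.74 (SE 0.29), and the collagen chain Col4a5 at -0.39 (SE 0.16). Over all genes 1.75% had such a p on this side and 49.3% were negative. Adjusted p-values were 0.771 to 0.939. Itgb1, the β subunit of the nephronectin receptor, had 0.13 (SE 0.14). These values were larger in size than that of Npnt itself except for Itgb1.

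Among markers of other cells that the dissection could hold, those of the proximal tubule lay mostly on the positive side. Of 26 proximal tubule genes 6 were measured and 5 were positive, with a median of 1.24, led by Gpx3, a secreted glutathione peroxidase, at 1.53 (SE 0.49), Gatm at 1.48 (SE 0.52) and Miox at 1.43 (SE 0.32). An unadjusted limma p under 0.05 was found for 4 of the 6, against 3.21% of genes on this side. Under random mouse effects Miox, Gpx3 and Gatm passed (limma adjusted p = 0.00836, 0.0383 and 0.0444). Fxyd4, Krt18 and Gata3 among the 10 principal cell genes passed too, as did 1.46% of all genes. Ppl of the keratin list (limma adjusted p = 0.00731) and Col3a1 of the interstitium list (0.0254) also passed. The mean level of the 6 proximal tubule genes was 0.40, 0.42 and 0.70 in WR1, WR2 and WR3, and 0.24, -0.95 and -0.81 in C1, C2 and C3. C1 lay nearest to the restricted mice here, as it did for Fxyd4 and Gata3, and not for the first and second Krt18 clones. Of the 6 proximal tubule genes, Gatm, Slc22a7 and Cyp7b1 overlapped between groups. C1 had 0.65 for Gatm, above WR1 at 0.58 and WR2 at 0.49, and 0.91 for Slc22a7, above WR1, WR2 and WR3. The part of the proximal tubule genes in the Fxyd4, Krt18 and Gata3 values was not tested.

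Of 18 intercalated cell genes, which mark the other cell type of the collecting duct, 4 were measured and 3 were negative, with a median of -0.06. The anion exchanger Slc4a1, which red cells also carry, had -0.74 (SE 0.24), Car12 -0.07 (SE 0.17) and Atp6v0a4 0.06 (SE 0.15). Of 11 interstitium genes 8 were measured and 5 were negative, with a median of -0.23, and -0.08 without the array WR2 against C2. The collagen Col3a1 had -0.56 (SE 0.17), the mean of clones at -1.07 and -0.05, the proteoglycan Dcn had 0.55 (SE 0.18), and Col1a1 had -0.46 (SE 0.35), which became 0.015 without that array. As a gene, Col3a1 was negative on 12 of 12 arrays, as in 0.487% of clones. It passed under random mouse effects (limma adjusted p = 0.0254), as did 1.46% of genes. The urothelium, which also makes keratin 18 and Gata3, was represented by 1 of 11 genes, Upk1a, at -0.13 (SE 0.33). The distal convoluted tubule list had 2 of 7 measured, Calb1 at 0.15 and Wnk1 at 0.05, the endothelium list 2 of 12 (Ehd3 at 0.18 and Emcn at -0.01), and the leukocyte list 3 of 12 (Lyz2 at 0.40, C1qb at 0.20 and C1qa at -0.0047). None of 10 thick ascending limb genes was measured.

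**Figure D4:**
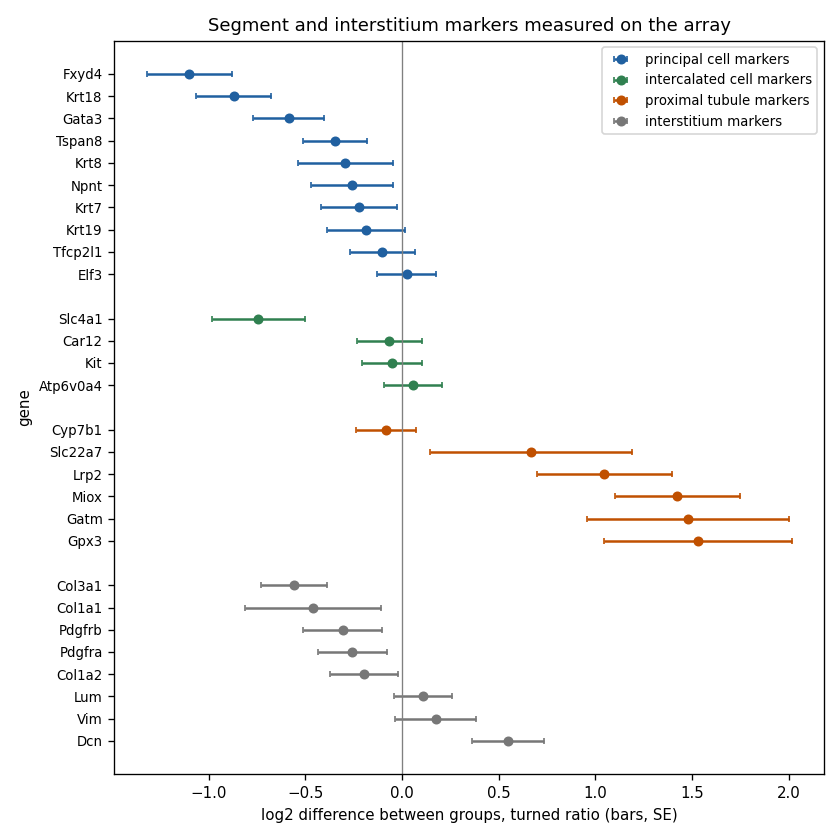
Log2 difference between groups on the turned scale (x axis, bars are SE, n = 3 mice per group) for the measured genes (y axis) of the principal cell, intercalated cell, proximal tubule and interstitium lists. Of the principal cell genes 9 of 10 lie below 0, from -1.10 for Fxyd4 to 0.02 for Elf3, and of the proximal tubule genes 5 of 6 lie above 0, up to 1.53 for Gpx3.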

How the data were processed

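Per the labels, amplified RNA was hybridised with Alexa Fluor 546 in channel 1 and 647 in channel 2. The authors deposited 1 log2 ratio per spot and array, for 31200 spots. The base is not stated. It was taken as 2 because values reach -15.2, too far for a natural logarithm of a ratio of 2 scanner signals, though subtracted or otherwise processed signals could reach it, so fold changes are not given. How they were corrected, normalized and centred is not given in the sources used here. The numbers of arrays and of mice limit the precision. Adjacent spots, alike in annotation, were averaged, and clones were named from the platform annotation, with symbols updated through RefSeq GRCm38.p6. Turning assumes ratios that run by dye; as deposited, swapped arrays correlated at -0.136, 0.13 and -0.133 over clones.

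Per clone, weighted least squares gave a level per mouse and a dye term, swapped arrays weighing 0.5 each. The levels, 3 against 3, were tested by limma 3.58.1 (lmFit, eBayes; R 4.3.3) with Benjamini-Hochberg adjustment over all clones, or over 6786 genes for lists, at 0.05. Dye terms and mice of the same group were tested by limma on the 12 arrays. The random-effects fit used 1 ratio of mouse to array variance for all clones, estimated at 0.1 by pooled restricted maximum likelihood. The code was tested on simulated data. Members, lists and tests were chosen with earlier results of these data known. Named genes were all members, all measured principal cell and FXYD genes, set partners, up to 4 genes of smallest p per pathway list, up to 3 of largest difference per cell type list, and 3 neighbours per clone. Alternatives changed centring, scale, weights, dye term, turning, arrays, spots, error model, replicate block and mice.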

Additional observations from a re-analysis of the deposited data

Results flagged for a closer look

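For the second Krt18 clone (spots 11307 and 11308), the array WR2 against C2 had 0.81, far from the other 5 arrays of the same dye orientation. Of 12 sets of 6 arrays examined this 1 stood out, and chance gives about 1 in 20. The dye orientations differed for that clone by 1.49, and for the first Krt18 clone (spots 7149 and 7150) by 1.15, by the limma dye term. Their cause was not tested.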

How the results depend on the processing

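The group difference of every member clone kept its sign under all alternatives but unturned ratios, where the groups and dyes trade places: Fxyd4 had 0.059, the Krt18 clones 0.58, 0.74 and 0.36, and Npnt 0.17 (Gata3 -0.02). Random mouse effects gave calls for Fxyd4 (-1.13), the Krt18 clones (-0.99, -0.78 and -0.92) and Gata3 (-0.60). That fit without the array WR2 against C2, chosen after seeing the data, gave -1.14, -1.06, -0.87, -0.99 and -0.60, with the ratio of mouse to array variance estimated anew at 0.15 in place of 0.1. With both variances set equal, also chosen after seeing the data, 0 clones passed. No member was called otherwise. The 0 called clones became 219 and 236 in these fits, 4 with unturned ratios and 1 on 647 arrays alone. Leaving out single mice moved Fxyd4 from -1.33 to -0.94 and Gata3 from -0.71 to -0.48. The 68 clones that differed within groups were 178 with scaled arrays, 28 with equal weights, 12 without the dye term, 19 and 12 with single spots, and 355 without the array WR2 against C2. The 1054 dye terms were 527 with equal weights, 361 and 451 with single spots. With equal weights the Krt18 dye terms had an adjusted p of 0.0315, 0.0228 and 0.109 by limma. The mouse number as a replicate block (0 calls) left Fxyd4 at -1.10 (SE 0.20). Same-numbered mice deviated with correlations of -0.009, -0.483 and -0.148 over clones. Such mice share an array, which itself moves their fitted levels, so these values cannot show whether the numbers pair mice.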
